A study of Mus musculus with 9 samples.

Results

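The insulin-like growth factor genes described here are the 2 ligands Igf1 and Igf2, the receptor Igf1r and the 6 binding proteins Igfbp2, Igfbp3, Igfbp4, Igfbp5, Igfbp6 and Igfbp7. They are 9 of the 19057 named genes on the array and were taken with every probe annotated to their symbols, 22 of 45281 probes. Their RNA was compared in meniscus, cruciate ligament and articular cartilage taken from the hindlimb of mouse embryos of the outbred strain CD-1 on embryonic day 16. Each tissue had 3 Illumina bead arrays of amplified RNA. The labels record no genetic change or treatment in any group. Whether the 3 replicates come from separate embryos is not stated, and p-values therefore reflect the scatter of these arrays, part or all of which may be technical. The cells of each tissue were measured in bulk, so that fewer cells of a type and less RNA per cell cannot be told apart.

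IGF1 and IGF2 are small secreted hormones related to insulin, and both act mainly through the receptor tyrosine kinase encoded by Igf1r, which signals growth and survival through the PI3 kinase and AKT pathway. Most IGF outside cells is held by the IGF-binding proteins, which lengthen its life and, depending on the protein and on its cleavage by proteases, withhold it from the receptor or deliver it. In skeletal tissue, IGF signalling is known for driving the growth of chondrocytes and their matrix synthesis, and IGF1 for matrix production and repair in tendon and ligament.

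Igf1, Igfbp3 and Igfbp4 were the members with more RNA in ligament than in cartilage, and Igfbp2 had the largest difference among the members with less. The 250 bases before their annotated RefSeq starts (assembly GRCm38.p6) are shown for these 4 genes because the results turn on them. They lie at chr10:87860861-87861110 on the plus strand for Igf1, chr11:7213924-7214173 on the minus strand for Igfbp3, chr11:99040994-99041243 on the plus strand for Igfbp4 and chr1:72824230-72824479 on the plus strand for the upstream start of Igfbp2. Each is written 5′ to 3′ along its gene, with capitals marking matches on either strand to the letters TATAAA, to the variant letters TATATA and to the letters GGGCGG.
Igf1: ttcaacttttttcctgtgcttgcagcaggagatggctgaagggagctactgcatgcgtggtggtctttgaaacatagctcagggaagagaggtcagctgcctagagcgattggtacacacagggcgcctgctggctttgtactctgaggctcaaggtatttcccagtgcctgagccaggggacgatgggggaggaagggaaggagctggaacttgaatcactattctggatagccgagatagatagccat
Igfbp3: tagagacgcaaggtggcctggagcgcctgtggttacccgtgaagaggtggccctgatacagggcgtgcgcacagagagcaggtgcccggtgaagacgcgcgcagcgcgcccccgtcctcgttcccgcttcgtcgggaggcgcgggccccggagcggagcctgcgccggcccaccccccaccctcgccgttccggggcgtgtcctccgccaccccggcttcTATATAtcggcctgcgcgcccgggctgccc
Igfbp4: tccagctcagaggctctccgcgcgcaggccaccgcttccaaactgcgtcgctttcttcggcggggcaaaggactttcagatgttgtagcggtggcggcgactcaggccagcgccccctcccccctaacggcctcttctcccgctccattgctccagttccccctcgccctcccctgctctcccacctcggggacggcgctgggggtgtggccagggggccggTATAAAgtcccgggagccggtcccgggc
Igfbp2: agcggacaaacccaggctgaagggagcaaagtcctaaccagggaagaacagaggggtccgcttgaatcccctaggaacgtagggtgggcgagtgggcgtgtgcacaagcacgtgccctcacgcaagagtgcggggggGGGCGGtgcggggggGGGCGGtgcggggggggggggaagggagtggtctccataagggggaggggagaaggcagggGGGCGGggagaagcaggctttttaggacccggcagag
The Igfbp3 window holds 1 match to TATATA, the Igfbp4 window 1 match to TATAAA and the Igfbp2 window shown 3 matches to GGGCGG. The Igf1 window holds none of the 3 motifs, and neither does the window of the downstream Igfbp2 start, which is not shown. Among all 32851 RefSeq promoter windows of this length, 12.37% hold TATAAA, 5.25% hold TATATA and 32.74% hold GGGCGG. A match is a description of the letters and not a measured binding site.

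Scanner signals had array medians of 93.4 to 101.2 in meniscus, 147.4 to 209.7 in ligament and 99.5 to 103.8 in cartilage. The ligament arrays had higher scanner medians than the others, a lower share of probes detected and more variation. The sample titles name no array set or run. The share was 28.9% to 31.9% in meniscus, 18.0% to 20.9% in ligament and 29.4% to 35.6% in cartilage, and the median SD within the tissue was 0.25, 0.51 and 0.26 on the log2 scale in the same order. Effects of ligament tissue and of the ligament arrays as such therefore cannot be told apart, and only meniscus against cartilage does not compare those arrays. After background correction and quantile normalization of all 9 arrays, the median tested probe was 0.01 higher in meniscus than in cartilage, 0.24 higher in meniscus than in ligament and 0.23 lower in ligament than in cartilage on the log2 scale. Differences and folds that involve ligament are given below relative to that median probe, while their p-values test the difference itself. All levels below are normalized log2 intensities, and probes of different genes are not compared in level, since brightness depends on the probe.

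Probes entered the tests when at least 1 tissue had all 3 arrays above background, at a detection p below 0.01. Of the 22 member probes, 17 were tested, covering 8 of the 9 genes, and 13 of these were detected on all 9 arrays. The other 4 tested probes, the second Igf1 probe, the Igf1r probe, the Igfbp2 probe and the fifth Igfbp7 probe, were not detected on every array of the tissue where they were lowest. Calls are limma tests at a Benjamini-Hochberg adjusted p below 0.05 over the 12538 tested probes of a comparison. In meniscus against cartilage 4 member probes of 2 genes (Igf1 and Igfbp3) were higher and 0 were lower, where 0.303% of all tested probes were called higher and 0.295% lower (0.598% in either direction); 8 of the 17 had an unadjusted limma p under 0.05, all of them higher in meniscus than cartilage, where 10.8% of all tested probes had one. In meniscus against ligament 8 probes of 4 genes were higher and 0 lower, against 8.89% of all tested probes higher and 3.13% lower. In ligament against cartilage 5 probes were higher and 8 lower, from 7 genes, against 4.06% of all tested probes higher and 11.1% lower. Over the 3 tissues together, the moderated F test of limma called 13 of the 17 member probes at an adjusted p below 0.05, against 14.0% of all tested probes. When the test itself was made relative to the median probe, meniscus against ligament kept 5 of its 8 calls. Ligament against cartilage kept 9 of its 13 calls, 5 of them higher and 4 lower.

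The median difference over the 17 tested member probes, here without subtracting the median of all probes, was 0.29 in meniscus against cartilage, where the median of all tested probes was 0.01. It was 0.76 in meniscus against ligament, beside 0.24 for all tested probes, and −0.72 in ligament against cartilage, beside −0.23. Probes of the same gene are not independent, and Igfbp7 with 5 tested probes and Igfbp5 with 3 weigh most in these medians and in the counts below. In ligament against cartilage the member probes went both ways, so that median does not describe the family as a whole. The arrays of meniscus lay wholly above those of cartilage for 9 member probes and wholly below for 0, where 13.2% of all tested probes lay above and 12.4% below (25.6% in all). Against ligament, meniscus lay wholly above for 11 and below for 1, where the shares of all tested probes were 23.3% and 8.94% (32.2% in all). Ligament lay wholly above cartilage for 6 and below for 10, where the shares were 9.63% and 24.2% (33.8% in all). The member probes varied within a tissue by a median SD of 0.16 in meniscus, 0.33 in ligament and 0.27 in cartilage. The 3 comparisons share arrays, so a high or low tissue enters 2 of them.

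**Figure D1:**
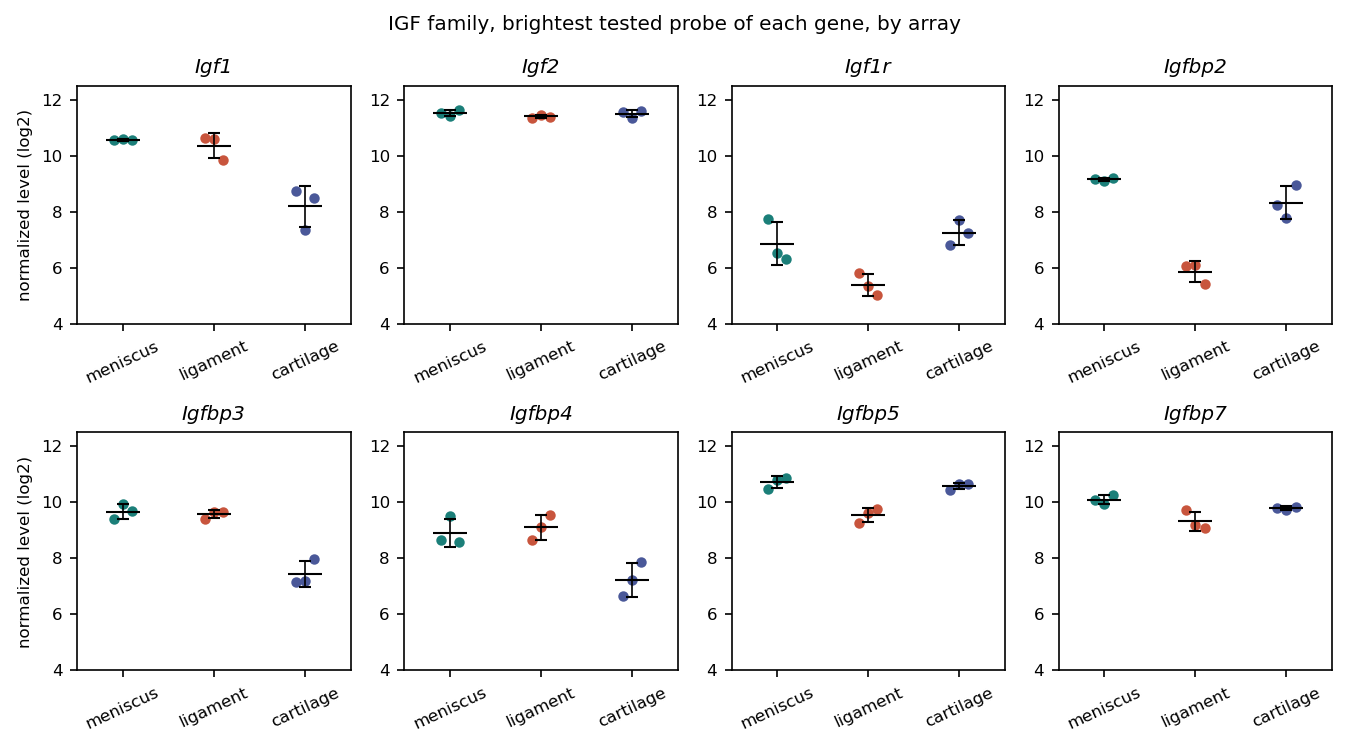
Normalized log2 intensity (vertical axis) of the brightest tested probe of the 8 tested genes, with 1 point per array and a bar at the mean of each tissue ± SD (n = 3), in the order meniscus, ligament, cartilage. The 3 cartilage points of Igf1 and of Igfbp3 lie below all points of the other tissues, the 3 ligament points of Igfbp2 and of Igfbp5 lie below all others, and the points of Igf2 lie between 11.37 and 11.64.

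Igf1, the ligand that many tissues make locally and the adult liver releases into blood, was lowest in cartilage, its brighter probe averaging 10.57 in meniscus, 10.37 in ligament and 8.20 in cartilage. On single arrays this probe, ILMN_1225565, read 10.57, 10.60 and 10.55 in meniscus, 10.64, 10.61 and 9.87 in ligament, and 8.74, 7.35 and 8.51 in cartilage. Every meniscus and ligament array lay above every cartilage array. The difference of meniscus from cartilage was 2.37 ± 0.37 (SE, n = 3 arrays each), which is 5.18-fold higher in meniscus (limma, Benjamini-Hochberg adjusted p = 0.0304). Ligament was 5.27-fold higher than cartilage by the same limma fit (adjusted p = 0.00705). Meniscus and ligament were not called different: the relative difference was −0.04, with a 95% interval of −0.88 to 0.80 (limma, adjusted p = 0.764). The interval spans nearly 1 log2 unit on either side, so the likeness of these tissues is only loosely bounded.

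The dimmer Igf1 probe, ILMN_2769884, gave the same order of tissues. It read 8.76, 9.04 and 8.86 in meniscus, 9.15, 9.01 and 7.79 in ligament, and 6.20, 5.11 and 5.86 in cartilage, where 2 of the 3 arrays were above background. In both probes the third ligament replicate was the lowest ligament array and the second cartilage replicate the lowest cartilage array. The meniscus difference from cartilage was 3.16 ± 0.40 (SE), or 8.96-fold (limma, adjusted p = 0.0202), and ligament was 8.88-fold higher than cartilage (limma, adjusted p = 0.00324). Without background correction the meniscus difference was 1.90, the lowest of the alternatives. Leaving out any 1 meniscus array, or cartilage replicate 1 or 2, took all 4 member calls of meniscus against cartilage past the threshold, and each probe kept its direction. For the brighter Igf1 probe the limma adjusted p ran from 0.00141 to 0.156 over the alternatives. The ligament excess over cartilage remained called for both Igf1 probes in every alternative run.

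Igf2, the growth factor of fetal life that is expressed from the paternal allele in most tissues, had nearly equal levels everywhere. Its probe, ILMN_2597769, read 11.55, 11.43 and 11.64 in meniscus, 11.37, 11.48 and 11.40 in ligament, and 11.58, 11.37 and 11.60 in cartilage. The ranges of the tissues overlapped. Meniscus differed from cartilage by 0.02 ± 0.19 (SE, n = 3 each), with a 95% interval of −0.41 to 0.46 (limma, adjusted p = 0.986). The interval of the relative difference was −0.55 to 0.32 for meniscus against ligament and −0.31 to 0.56 for ligament against cartilage, and the moderated F test over the 3 tissues gave an adjusted p of 0.871 (limma). The largest change these intervals hold for Igf2 is smaller than the smallest fitted change of Igf1 from cartilage.

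Igf1r, the receptor tyrosine kinase that binds both ligands, had 1 tested probe among its 4. The annotation names no transcript for the tested probe, unlike for the others. That probe, ILMN_2482214, read 7.74, 6.54 and 6.32 in meniscus, 5.81, 5.37 and 5.02 in ligament, and 6.81, 7.72 and 7.25 in cartilage. All ligament arrays lay below all others, only 1 of them was above background, and meniscus and cartilage overlapped. Meniscus differed from cartilage by −0.39 ± 0.41 (SE; limma, adjusted p = 0.829). Ligament was lower than cartilage by a relative difference of −1.63, a ratio of 0.322 (limma, adjusted p = 0.0183), a call that was lost without cartilage replicate 2 (adjusted p = 0.0740) or replicate 3 (adjusted p = 0.0591). Over all its alternatives the limma adjusted p of that comparison ran from 0.0113 to 0.0740. Meniscus was 2.34-fold higher than ligament (limma, adjusted p = 0.0466), but this call held in only 2 of 19 alternatives (limma, adjusted p = 0.0381 to 0.152). Of the other Igf1r probes, ILMN_1249824 was detected on 1 meniscus, 0 ligament and 2 cartilage arrays, ILMN_1232222 on 1 cartilage array only, and ILMN_1239663 on none.

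Igfbp3, the main carrier of IGF in blood and a binding protein that can also hold IGF back from its receptor, was also lowest in cartilage. The brighter probe, ILMN_1219335, read 9.39, 9.95 and 9.69 in meniscus, 9.43, 9.67 and 9.64 in ligament, and 7.16, 7.20 and 7.97 in cartilage. No cartilage array reached the level of any other array. Meniscus was higher than cartilage by 2.23 ± 0.27 (SE, n = 3 each), or 4.71-fold (limma, adjusted p = 0.0185), and ligament was 5.15-fold higher than cartilage (limma, adjusted p = 0.00298). The dimmer probe, ILMN_2727503, read 8.23, 8.36 and 8.29 in meniscus, 9.03, 9.19 and 9.07 in ligament, and 5.55, 5.67 and 6.87 in cartilage. It was 4.80-fold higher in meniscus than in cartilage (limma, adjusted p = 0.0222) and 9.81-fold higher in ligament than in cartilage (limma, adjusted p = 0.00173). The probes disagreed between meniscus and ligament: the relative difference was −0.15 for the brighter probe (limma, adjusted p = 0.855) and −1.05 for the dimmer probe, whose meniscus and ligament arrays did not overlap (limma, adjusted p = 0.142).

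Igfbp4, a binding protein that mostly inhibits IGF action until the protease PAPP-A cleaves it, was called in 1 comparison. The brighter probe, ILMN_2694955, read 8.67, 9.50 and 8.60 in meniscus, 8.66, 9.14 and 9.54 in ligament, and 6.65, 7.22 and 7.87 in cartilage. Ligament was 4.27-fold higher than cartilage (limma, adjusted p = 0.0148), a call lost by a narrow margin with array weights (adjusted p = 0.0501) and without cartilage replicate 1 (adjusted p = 0.0502) or 2 (adjusted p = 0.0556), with a lowest limma adjusted p of 0.00813 over the alternatives. Its meniscus and cartilage arrays did not overlap, but the difference of 1.68 ± 0.39 (SE) was not called (limma, adjusted p = 0.104). That difference was called in 5 of 21 alternatives, with limma adjusted p from 0.0164 to 0.374. The dimmer probe, ILMN_1258988, read 8.79, 8.96 and 8.87 in meniscus, 7.89, 8.46 and 8.15 in ligament, and 7.60, 7.29 and 7.87 in cartilage. Its meniscus difference from cartilage, 1.29 ± 0.24 (SE), missed the threshold at an adjusted p of 0.0589 (limma) and passed it in 12 of 20 alternatives, with adjusted p from 0.00309 to 0.272. The ligament difference from cartilage was 0.81 for this probe (limma, adjusted p = 0.131).

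Igfbp2, a binding protein with an RGD motif through which it can also bind integrins, was low in ligament and not in cartilage. Its tested probe, ILMN_2930897, read 9.17, 9.10 and 9.22 in meniscus, 6.07, 6.11 and 5.43 in ligament, where 2 of 3 arrays were above background, and 8.25, 7.79 and 8.95 in cartilage. The 3 tissues did not overlap on any array. Meniscus was 8.27-fold higher than ligament (limma, adjusted p = 0.00265), and ligament was lower than cartilage with a ratio of 0.213 (limma, adjusted p = 0.00298). Both calls held in each of the 19 alternatives in which the probe was fitted. The step from cartilage up to meniscus, 0.83 ± 0.32 (SE, n = 3 each), was not called (limma, adjusted p = 0.375). A second probe, ILMN_1236788, was not detected on any array.

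Igfbp5, a binding protein that attaches to extracellular matrix and is made by many connective tissue cells, had 3 tested probes, all detected on all 9 arrays. The first, ILMN_1254358, read 10.49, 10.80 and 10.89 in meniscus, 9.26, 9.61 and 9.76 in ligament, and 10.45, 10.65 and 10.66 in cartilage. ILMN_2682613 read 10.51, 10.57 and 10.78 in meniscus, 8.96, 9.39 and 9.27 in ligament, and 10.25, 10.52 and 10.73 in cartilage. ILMN_2964324 read 8.87, 8.97 and 8.62 in meniscus, 7.63, 7.11 and 7.08 in ligament, and 7.97, 8.49 and 8.33 in cartilage. In all 3 probes every ligament array lay below every array of the other tissues.

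Meniscus was higher than ligament by 1.92-fold, 2.25-fold and 2.47-fold in these 3 Igfbp5 probes (limma, adjusted p = 0.0128, 0.00741 and 0.00734). The ratio of ligament to cartilage was 0.568, 0.477 and 0.588 (limma, adjusted p = 0.0170, 0.00755 and 0.0286). Only ILMN_2682613 was called in both comparisons under every alternative. The ligament and cartilage call of ILMN_2964324 held in 11 of 19. It was lost when tested relative to the median probe (limma, adjusted p = 0.0748). Between meniscus and cartilage the differences were 0.14, 0.12 and 0.56, none of them called (limma, adjusted p = 0.893, 0.915 and 0.463). The probes target 1 gene and share the same RNA, so they are not replicates of the comparison.

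Igfbp7, a secreted protein of vessels and stroma that binds IGF with lower affinity than the other binding proteins here, had 5 tested probes. The brightest, ILMN_2764588, read 10.08, 9.94 and 10.26 in meniscus, 9.72, 9.19 and 9.08 in ligament, and 9.80, 9.74 and 9.86 in cartilage. Its ligament arrays lay below all others, but neither the relative difference of meniscus from ligament, 0.52, nor that of ligament from cartilage, −0.24, was called (limma, adjusted p = 0.0605 and 0.197). Of the other 4 probes, ILMN_1245755, ILMN_2447512 and ILMN_2634286 were called in both ligament comparisons, with meniscus higher than ligament by relative differences of 0.59, 0.89 and 1.22 (limma, adjusted p = 0.042, 0.0166 and 0.0398). Ligament was lower than cartilage in those 3 by −0.69, −0.80 and −1.09 (limma, adjusted p = 0.0264, 0.0199 and 0.0483). ILMN_2634286 was above background on only 1 ligament array. When tested relative to the median probe, ILMN_2447512 remained called in meniscus against ligament, and none of the 3 remained called in ligament against cartilage (limma, adjusted p = 0.0755, 0.0529 and 0.0984). Over all alternatives their limma adjusted p in ligament against cartilage ran from 0.00981 to 0.0925, from 0.00891 to 0.0718 and from 0.0186 to 0.140. These calls held in 11 of 19, 15 of 19 and 3 of 18 alternatives. In meniscus against ligament the calls of the same probes held in 6 of 19, 15 of 19 and 7 of 18. Meniscus and cartilage differed by −0.09 to 0.29 over the 5 probes, with 0 called (limma, adjusted p = 0.755 to 0.951).

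Igfbp6, a binding protein with a preference for IGF2, was not detected on any of the 9 arrays. Its probe read 4.55, 4.46 and 4.44 in meniscus, 4.39, 4.36 and 4.45 in ligament, and 4.48, 4.40 and 4.34 in cartilage. It was not tested, and a signal at background is no measure of absence.

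**Figure D2:**
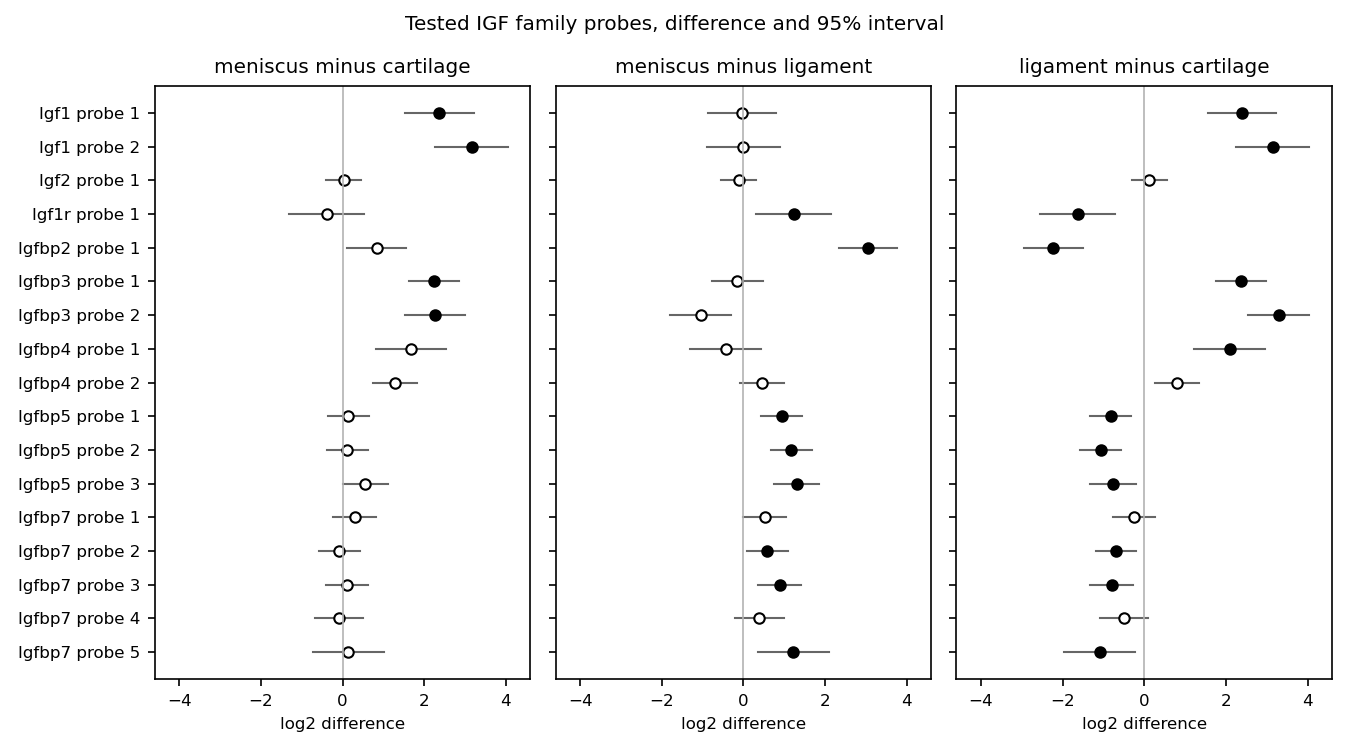
Differences between tissues on the log2 scale for the 17 tested member probes, 1 panel per comparison, with 95% intervals as lines and filled points where the limma call was made. Differences that involve ligament are relative to the median tested probe; Igf1 and Igfbp3 stand to the right in meniscus minus cartilage and in ligament minus cartilage, and Igfbp2, Igfbp5 and Igf1r to the left in ligament minus cartilage.

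Markers of the dissected tissues and of other cell types were read in the same fit. Summed over 10 cartilage markers, the linear normalized level was 5211 to 7046 in meniscus, 4434 to 8700 in ligament and 17714 to 25094 in cartilage. Limma called 8 of the 10 lower in ligament than in cartilage, where 11.1% of all tested probes were called lower. Over 8 tendon and ligament markers the sum was 3106 to 4018 in meniscus, 5302 to 5430 in ligament and 2413 to 2997 in cartilage. Of the 6 tested, limma called 5 higher in ligament than in cartilage, where 4.06% of all tested probes were called higher. Tnmd, a defining tendon marker, was not detected in any tissue. Scx was detected in ligament alone, where it was not above background on every array, and it was not tested.

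The summed markers of blood vessels, of macrophages and of smooth muscle were also lowest in cartilage, as were Igf1, Igfbp3 and Igfbp4. The sum over 12 endothelial markers was 548 to 991 in meniscus, 501 to 873 in ligament and 313 to 372 in cartilage, with 8 tested, 0 called in meniscus against cartilage and 6 higher at an unadjusted limma p under 0.05. Cdh5, Kdr, Tie1, Cldn5 and Eng were at background on all ligament and all cartilage arrays, and Tie1 and Eng also in meniscus. The sum over 9 macrophage markers was 514 to 1295 in meniscus, 379 to 1833 in ligament and 258 to 305 in cartilage, with 4 tested and 0 called in meniscus against cartilage, 3 of them higher at an unadjusted limma p under 0.05. C1qa and Fcer1g were undetected in all 3 tissues. In ligament against cartilage, limma called 1 macrophage marker higher, Tyrobp (5.52-fold, adjusted p = 0.0310), 1 endothelial marker, Emcn (4.13-fold, adjusted p = 0.0408), and 2 smooth muscle and pericyte markers, Myl9 (4.71-fold, adjusted p = 0.00854) and Rgs5 (8.31-fold, adjusted p = 0.00574). The sum over 10 smooth muscle and pericyte markers was 1423 to 1650 in meniscus, 1469 to 1696 in ligament and 999 to 1215 in cartilage, with 5 tested. In meniscus against cartilage its Myl9 was higher, by 2.59 (limma, adjusted p = 0.0222), and its Cspg4 lower, by −1.89 (limma, adjusted p = 0.0304), so that list did not move one way.

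Within meniscus and within ligament, the mean of the macrophage markers varied more than the brighter Igf1 probe. Within cartilage it varied less, but only 4 of the 9 markers were detected there on any array, against 6 in meniscus and 6 in ligament. A spread near background does not show how far these cells varied in cartilage. The mean log2 level of the macrophage markers was 5.35, 6.32 and 6.12 on the 3 meniscus arrays, on which the brighter Igf1 probe stayed within 10.55 to 10.60. On the ligament arrays it was 6.61, 5.37 and 5.18, where Igf1 read 10.64, 10.61 and 9.87. On the cartilage arrays it was 4.95, 4.77 and 4.90, where Igf1 read 8.74, 7.35 and 8.51. The same array was lowest for both in ligament and in cartilage, and not in meniscus. The endothelial mean was 5.28, 6.10 and 5.64 in meniscus, 5.82, 5.50 and 4.87 in ligament, and 4.73, 4.68 and 4.91 in cartilage. The part of these cells in the differences of Igf1, Igfbp3 and Igfbp4 was not tested. The sum over 4 erythroid markers was 381 to 598 in meniscus, 1157 to 1449 in ligament and 211 to 465 in cartilage, and its part in the ligament values was not tested either.

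**Figure D3:**
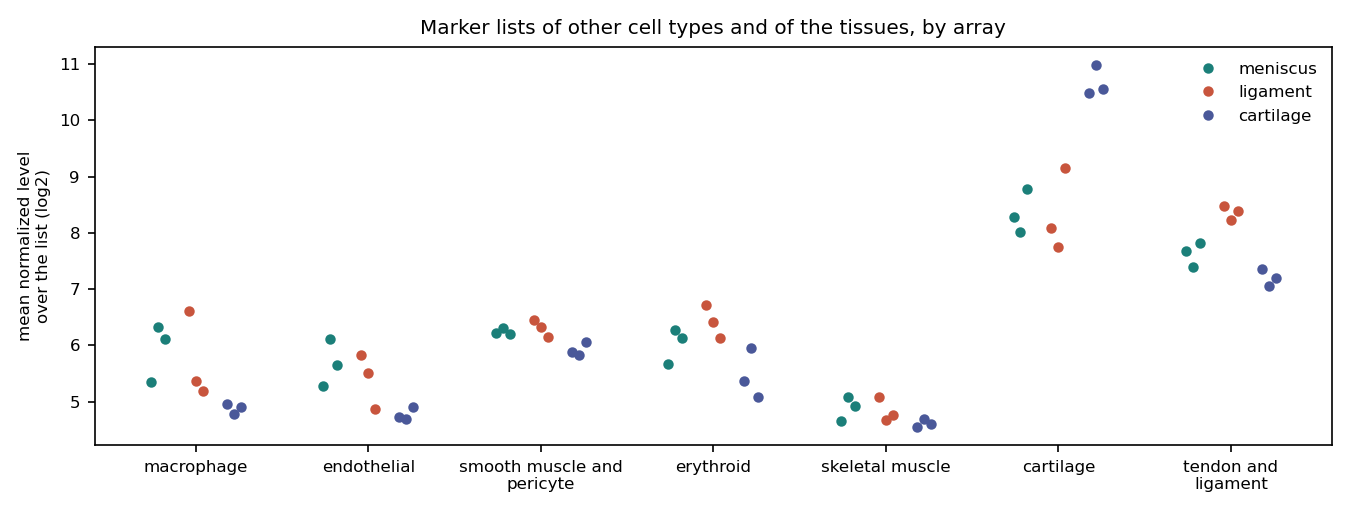
Mean normalized log2 level of each marker list (vertical axis) on each array, in the order meniscus, ligament, cartilage. The cartilage markers are highest on the 3 cartilage arrays, the tendon and ligament markers on the 3 ligament arrays, and the macrophage and endothelial markers are lower on cartilage arrays than on meniscus arrays.

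Of 41 further genes of the IGF pathway, 34 had a probe and 24 were tested, each by its brightest tested probe. In meniscus against cartilage limma called 0 of 24, where 0.598% of all tested probes were called. An unadjusted limma p under 0.05 was reached by 4 that were higher and 3 that were lower, where 10.8% of all tested probes reached it. In meniscus against ligament 2 were higher and 0 lower, 8.33% of the genes against 12.0% of all tested probes. In ligament against cartilage 1 was higher and 3 were lower, 16.7% against 15.2% of all tested probes. The share of calls was thus near or below that of all probes in the comparisons that involve ligament. In meniscus against cartilage, where few probes were called at all, 0 of 24 cannot show a lower share. With array weights that count was 4, and in the other alternatives run for these genes it was 0 to 2. The 12 tested adaptors and kinases, which carry the signal from the receptor inward, held 1 call.

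Of the 5 pathway genes called, 3 belong to the list of proteases that cut the binding proteins and of their inhibitors. Htra1, a secreted serine protease that can cleave IGFBP5, read 9.37, 8.94 and 9.05 in meniscus, 9.52, 9.80 and 9.88 in ligament, and 8.03, 7.47 and 8.01 in cartilage. It was 4.36-fold higher in ligament than in cartilage (limma, adjusted p = 0.00298), and its meniscus difference from cartilage of 1.28 was not called (limma, adjusted p = 0.0615). Stc1, encoding a stanniocalcin, a glycoprotein that inhibits pappalysin proteases, read 10.20, 10.48 and 9.86 in meniscus, 8.18, 8.73 and 7.49 in ligament, and 9.54, 9.80 and 10.23 in cartilage. All its ligament arrays lay below the rest. Meniscus was 3.48-fold higher than ligament (limma, adjusted p = 0.00867), and the ratio of ligament to cartilage was 0.355 (limma, adjusted p = 0.0131).

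Stc2, the second stanniocalcin gene, read 6.11, 5.08 and 4.91 in meniscus, 4.46, 5.85 and 4.66 in ligament, and 6.19, 6.89 and 6.56 in cartilage, and was lower in ligament than in cartilage (ratio 0.397; limma, adjusted p = 0.0415). Hmga2, a chromatin protein that activates the Igf2bp2 gene, read 5.96, 5.02 and 5.32 in meniscus, 4.94, 5.18 and 6.42 in ligament, and 7.94, 6.87 and 6.95 in cartilage, with a ratio of ligament to cartilage of 0.349 (limma, adjusted p = 0.0329). Both Stc2 and Hmga2 were above background on only 1 of the 3 ligament arrays. Gsk3b, a kinase that AKT inhibits, read 7.42, 7.78 and 7.71 in meniscus, 6.08, 6.83 and 6.06 in ligament, and 6.82, 7.48 and 7.61 in cartilage. It was 2.10-fold higher in meniscus than in ligament (limma, adjusted p = 0.0249). When tested relative to the median probe, only 1 pathway gene was called in meniscus against ligament and 2 in ligament against cartilage. For their SE, the called relative differences of Gsk3b, Stc2 and Hmga2 were smaller than those of Stc1 and Htra1. Igf2r, the receptor that clears IGF2 from the cell surface, averaged 10.15 in meniscus, 9.95 in ligament and 10.42 in cartilage and was not called in any of the 3 comparisons.

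**Figure D4:**
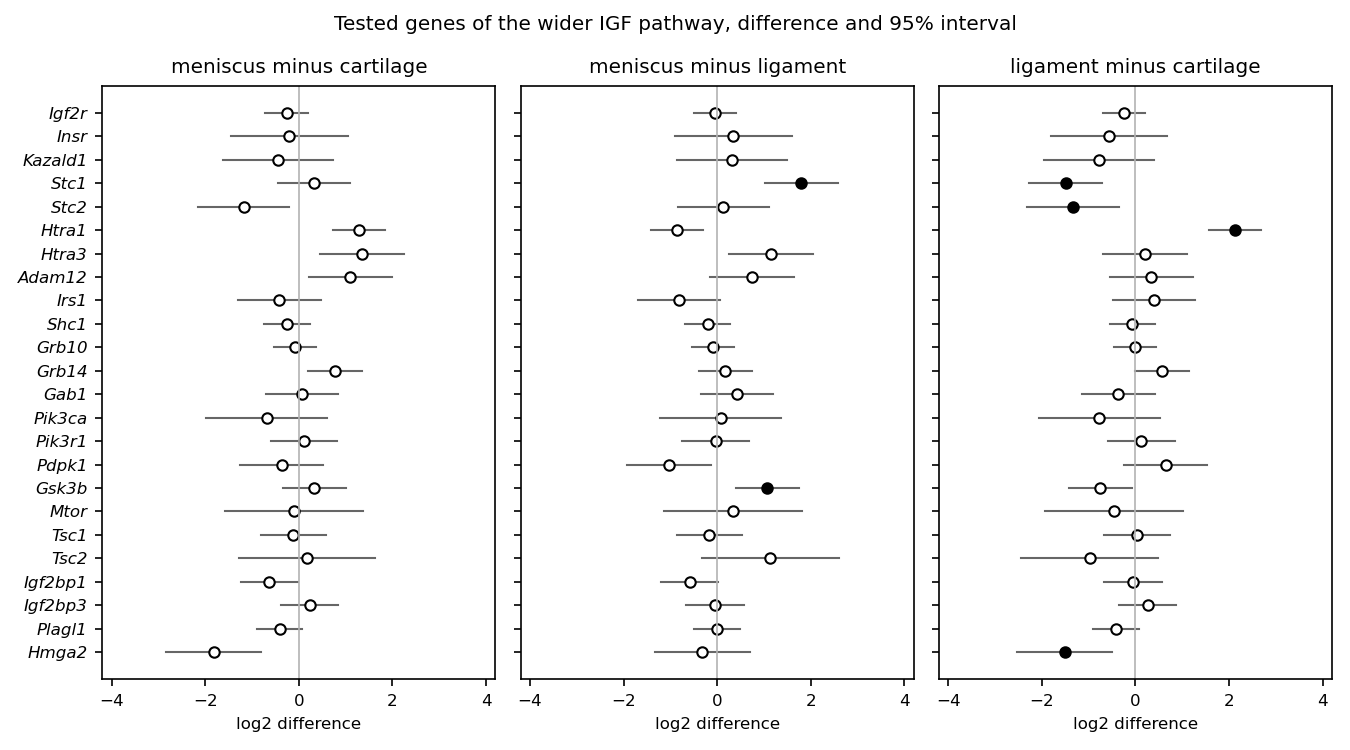
Differences between tissues on the log2 scale (horizontal axis) for the 24 tested pathway genes, 1 panel per comparison, with 95% intervals as lines and filled points where limma made a call; those that involve ligament are relative to the median tested probe. No point is filled in meniscus minus cartilage, Stc1 and Gsk3b are filled in meniscus minus ligament, and Htra1 is the 1 filled point to the right in ligament minus cartilage.

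Likeness to other genes was described by the root-mean-square difference between centred log2 values over the 9 arrays, among 7233 other named genes. Nearest to Igf1 were Aspn at 0.431, Rnase4 at 0.440 and Igfbp3 at 0.445, where Igf1 itself spanned 3.29 log2 units. Aspn encodes asporin, a small leucine-rich proteoglycan of connective tissue matrix. The genes nearest to Igfbp3, which spanned 2.79 units, were Adamts4, a protease that cleaves aggrecan, at 0.271, Lmo2 at 0.278 and Col4a1, a basement membrane collagen, at 0.280. For Igfbp4 they were Lmo2 at 0.320, Igfbp3 at 0.342 and Col4a1 at 0.342, so Igfbp3 was among the 3 nearest genes of both Igf1 and Igfbp4.

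Igfbp2, which spanned 3.79 units, was nearest to Col22a1, a collagen of tissue junctions, at 0.454, then to Anxa7 and Cd248, both at 0.490. Igf1r was nearest to Swap70 at 0.330, Rab3a at 0.339 and Cdc42se1 at 0.352. For Igfbp5 the nearest were Rcl1 at 0.141, Crip2 at 0.153 and Ncbp2 at 0.161, and for Igfbp7 Rgs7bp at 0.112, Gem at 0.113 and Psmd7 at 0.118. Members that varied little lie close to many genes by this measure, so distances are not comparable between members.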

How the data were processed

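The members and lists were chosen with earlier results of these data known. RNA was extracted with a PicoPure kit, amplified and biotin-labelled with NuGEN kits and hybridised to Illumina arrays, per the labels' protocols. Per the submitters' processing notes the authors used GenomeStudio, in a version not given here. Deposited scanner tables hold linear signal intensity and the detection p-value for every probe on every array, per the file headers. Scanner rows carry no gene names, so each of the 45281 rows was matched by its ranks on the 9 arrays to a row of the authors' processed intensity table, whose probes the platform annotation names. Partners differed by at most 96 rank places on any array in the median row, against 4549.5 for the next nearest row. The authors' values had medians of 172.2 to 172.3 on ligament arrays and 99.9 to 100.0 on the others, so they were used as an alternative only in meniscus against cartilage.

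Intensities were background-corrected with limma 3.58.1 in R 4.3.3 (normexp, controls inferred from the deposited detection p-values, offset 16), quantile normalized over 9 arrays and put on the log2 scale. Probes were kept when at least 1 tissue had all 3 arrays at a detection p below 0.01. A linear model of tissue means with a shared spread was fitted to each probe over the 9 arrays (lmFit, eBayes), with Benjamini-Hochberg adjustment over the kept probes within each comparison. The code was tested on simulated data. Named genes are all members, pathway genes called in a comparison and the 3 genes most like each called member; Igf2r, and the marker genes named as called or undetected, were added after their values were seen. Alternatives covered the filter, background correction, normalization, array weights, arrays in the fit, 1 probe per gene, centring, the replicate block and each array left out. The number of arrays limits the precision.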

Additional observations from a re-analysis of the deposited data

How the results depend on the processing

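Of the 4, 8 and 13 called member probes in meniscus against cartilage, meniscus against ligament and ligament against cartilage, 0, 3 and 6 stayed called in every alternative in which they were fitted, and none changed sign. In meniscus against cartilage the count of 4 became 1 with no detection filter and 2 with 1 probe per gene. With 1 array left out it was 0 to 5. It rose to 6 with array weights and with only the arrays of both tissues in the fit. The authors' values and the 6 arrays normalized alone also gave 6. Of all tested probes, 5.46%, 3.03%, 4.02% and 3.02% were called in these settings. With probes detected on all 9 arrays, an offset of 50, no background correction, cyclic loess or a shift to equal medians, the count was 5. It was 0 without any 1 meniscus array or cartilage replicate 1 or 2 (limma; 6 or 7 of 17 at an unadjusted p under 0.05) and 2 without cartilage replicate 3. In meniscus against ligament the count of 8 became 5 with cyclic loess and 5 relative to the median probe. It was 3 with only the arrays of both tissues in the fit, 3 with 1 probe per gene, and 3 to 9 with 1 array left out. Without background correction it was 10. In ligament against cartilage the count of 13 became 9 relative to the median probe, 8 with only the arrays of both tissues and 6 with 1 probe per gene. With 1 array left out it was 6 to 14, the lowest without cartilage replicate 2. The 6 pathway calls over the 3 comparisons became 3 relative to the median probe and 3 to 8 with 1 array left out. The cause of these changes was not tested, except that 1 probe per gene leaves 8 member probes. Cyclic loess reduced the shift of the median probe in meniscus against ligament to 0.02, from 0.24 with quantile normalization. Deviations of same-numbered arrays had correlations of −0.03 to 0.14, against −0.11 to 0.05 for other arrays of different tissues. Between meniscus and cartilage the same-numbered values were 0.06, 0.14 and 0.01. With so few arrays a tissue, these values cannot show whether the numbers pair the samples. With the replicate number as a block the counts were 0 (7 at an unadjusted p under 0.05, limma), 5 and 10. Probes near background, as for Igfbp6 and Igf1r in ligament, limit what signal over background can show. The sizes of differences also depended on the processing for such probes. In meniscus against cartilage the dimmer Igfbp3 probe ran from 1.30, without background correction, to 2.68. In meniscus against ligament the Igfbp2 probe ran from 2.08 to 3.41.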
